A study of Homo sapiens with 8 samples.

Results

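The genes described here are 10 core components of the circadian clock: NR1D1, NR1D2, PER1, PER2, PER3, CRY1, CRY2, ARNTL, CLOCK and DBP. They were taken by symbol from a table of RNA sequencing counts with 23368 gene symbols, and all 10 were found and passed the filter on low counts. The list was chosen because NR1D1 stood among the strongest rises with MOV10 overexpression. Values of the comparison of overexpression with control are therefore given for these genes as a description, without a test.

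The cells were HEK293F, an established human embryonic kidney cell line, and the study varied the level of MOV10, an RNA helicase. The overexpression group (3 libraries) received 1 transfection of a plasmid for myc-tagged MOV10. The knockdown group (2 libraries, numbered 2 and 3) received a siRNA against MOV10, and the control group (3 libraries) an irrelevant siRNA, each given 3 times with 24 h between doses. An empty-plasmid control was not used here, so the plasmid itself and the absence of siRNA cannot be told apart from MOV10 in the overexpression group. Whether replicate libraries stem from separate cultures is not stated in the labels, so p-values measure only the spread among these libraries, and that spread may be technical.

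The mammalian clock is a feedback loop of transcription. CLOCK and the product of ARNTL, also called BMAL1, bind E-boxes as a pair and activate the PER, CRY, NR1D and DBP genes. PER and CRY proteins then repress that pair, and the nuclear receptors made by NR1D1 and NR1D2 (REV-ERB alpha and beta) repress ARNTL at response elements that they share with the ROR activators. Most cultured cell lines carry these genes, but cells that have not been synchronised can run at different phases, so a library of bulk RNA averages over them. Bulk counts also cannot tell apart fewer cells that express a gene and less RNA of that gene per cell.

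Promoter letters of the clock genes are shown because the loop is wired through short elements in them. Whether these elements relate to the changes in level was not tested. RefSeq (GRCh38.p14) gave 15 windows for the 10 genes, each running from 250 bases before to 50 bases after a transcription start. The letters searched, on both strands, were CACGTG for the E-box, CACGTT for the variant E-box called E-prime box, AGGTCA for the core of REV-ERB and ROR response elements (RRE core), TTANGTAA for the D-box bound by DBP, and TGACGTCA for the cAMP response element (CRE). None of these motifs contains another. In the sequences, which read 5′ to 3′ on the strand of the gene, capitals mark the match, and positions count from the start site. The 250 bases before the start of NR1D1 are given in full, with its 1 match at position -168.
NR1D1, chr17:40100590-40100839, minus strand: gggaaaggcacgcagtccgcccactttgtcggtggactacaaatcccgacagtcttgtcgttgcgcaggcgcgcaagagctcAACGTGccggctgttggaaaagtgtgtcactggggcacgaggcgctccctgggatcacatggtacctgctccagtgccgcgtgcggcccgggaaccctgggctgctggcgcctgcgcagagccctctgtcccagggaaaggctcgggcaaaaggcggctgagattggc

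The next lines give the E-box and E-prime box matches of the other clock genes, the elements of the CLOCK and BMAL1 pair, and 2 of the D-box matches.
NR1D2, E-box at position -155, chr3:23945954-23945983, plus strand: ggcgggcggggaCACGTGaggccgctcggc
NR1D2, E-box at position -105, chr3:23946004-23946033, plus strand: gggccgcagggaCACGTGggggcgggggcg
PER1, E-box at position -173, chr17:8152560-8152589, minus strand: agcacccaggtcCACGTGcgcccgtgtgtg
PER2, E-prime box at position -197, chr2:238288790-238288819, minus strand: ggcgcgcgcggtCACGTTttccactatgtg
CRY1, E-prime box at position -89, chr12:107093621-107093650, minus strand: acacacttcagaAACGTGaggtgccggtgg
CRY2, E-prime box at position -188, chr11:45847275-45847304, plus strand: acacatggtaggAACGTGagggggcgggcc
CLOCK, E-prime box at position -187, chr4:55546102-55546131, minus strand: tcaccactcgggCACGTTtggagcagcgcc
NR1D2, D-box at position -194, chr3:23945915-23945946, plus strand: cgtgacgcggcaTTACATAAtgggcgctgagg
PER3, D-box at position -177, chr1:7784102-7784133, plus strand: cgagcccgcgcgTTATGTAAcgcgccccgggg

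An E-box stood in a window of 2 of the 10 genes (NR1D2 and PER1), against 7.26% of all 35116 RefSeq windows. The E-prime box stood in 5 genes (NR1D1, PER2, CRY1, CRY2 and CLOCK), against 5.34% of windows, and the D-box in 3 genes (NR1D2, PER2 and PER3), against 2.18%. The RRE core stood in PER1, CRY2 and ARNTL, against 13.8% of windows, and the CRE in 0 of the 10 genes, against 1.85%. Genes with several windows had more chances of a match, and a match is a run of letters, not a measured binding site. DBP had no match in its window.

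**Figure D1:**
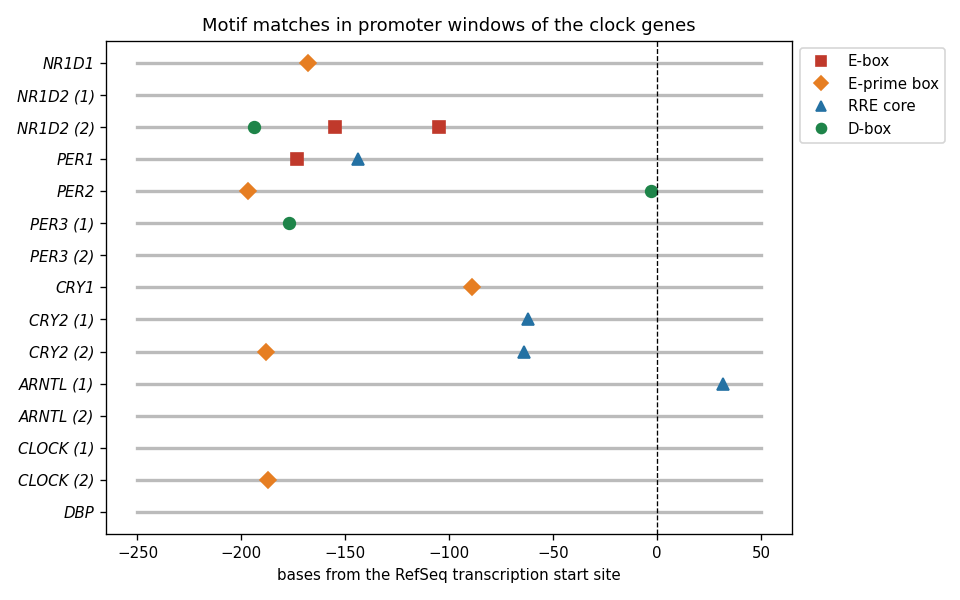
Motif matches in the 15 RefSeq promoter windows of the 10 clock genes. The horizontal axis gives bases from the transcription start (dashed line), each grey line is 1 window, and symbols mark the start of a match by motif; NR1D1 has an E-prime box at -168, and NR1D2 has the only pair of E-boxes in 1 window.

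Total counts were 12.7 to 23.4 M reads per library with overexpression, 19.4 and 32.8 M with knockdown, and 15 to 22.7 M in control cells. Values below are CPM, read counts set relative to library totals that were scaled by TMM factors. MOV10 followed its labels, at 2971, 2916 and 2454 CPM with overexpression, 50.6 and 55.5 CPM with knockdown, and 76.8, 76.4 and 91.2 CPM in control cells. The 8 markers of the embryonic kidney line were all detected and summed to 1156 to 1223 CPM with overexpression, 1470 to 1546 CPM with knockdown and 1285 to 1303 CPM in control cells. The 7 markers of other cell types summed to 65.7 to 72.6 CPM, 47.3 to 51.04 CPM and 70.3 to 76.0 CPM in the same groups, most of it COL1A1. The leukocyte marker PTPRC reached at most 0.0767 CPM and the endothelial marker PECAM1 at most 0.381 CPM in any library. ALB (hepatocyte), GFAP (astrocyte) and DES (muscle) reached at most 0.856, 1.87 and 1.92 CPM. EPCAM (epithelial) stood at 5.20 to 11.2 CPM over all libraries. With knockdown EPCAM, COL1A1, GFAP and DES lay below every control library, and ALB above. The sum of the kidney line markers differed between all groups. That of the other markers was lower with knockdown and overlapped between overexpression and control. The part of both sums in the results on clock genes was not tested. Changes were tested with edgeR's quasi-likelihood test over 15254 genes, with Benjamini-Hochberg adjustment, and a gene with an adjusted p under 0.05 is called changed.

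NR1D1 was 3.04-fold higher with overexpression, the comparison by which the list was chosen. With knockdown PER2, CRY2 and ARNTL rose and CLOCK fell. NR1D1 lay just below the control range in 1 knockdown library and above it in the other. PER2, a repressor of the loop, was the only clock gene whose rise with knockdown was called under every alternative tried.

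NR1D1 encodes REV-ERB alpha, the repressor of ARNTL. Its level was 83.3, 89.1 and 75.3 CPM with overexpression, 33.4 and 25.2 CPM with knockdown, and 28.0, 26.2 and 27.5 CPM in control cells. All 3 overexpression libraries stood above every knockdown and control library, while the knockdown libraries lay on both sides of the control range. The deposited counts behind these levels were 1999, 1990 and 982 reads with overexpression, 1053 and 473 reads with knockdown, and 632, 506 and 411 reads in control cells. The means were 82.6 ± 6.91 CPM with overexpression, against 27.2 ± 0.932 CPM in control cells (SD, n = 3 each). The log2 fold change was 1.61 ± 0.08, where this and all later errors of fold changes are SE. That difference ranked 61 of 15254 genes from the highest, which is the value the list was chosen by. With knockdown the log2 fold change was 0.13 ± 0.10 and did not pass the test (edgeR adjusted p = 0.322). It was -0.12 (edgeR adjusted p = 0.482) without knockdown replicate 2 and 0.30 (adjusted p = 0.0219) without knockdown replicate 3, so the direction turned with the library used.

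NR1D2 encodes REV-ERB beta, the close relative of NR1D1. It stood at 191, 185 and 219 CPM with overexpression, 163 and 161 CPM with knockdown, and 176, 187 and 171 CPM in control cells. The overexpression and control libraries overlapped, and both knockdown libraries lay below every control library. The log2 fold change was 0.15 ± 0.06 with overexpression. With knockdown it was -0.14 ± 0.06 and missed the threshold (edgeR adjusted p = 0.0877), but it was called with scaling by library totals (-0.19, edgeR adjusted p = 0.0249) and with only the compared groups in the fit (adjusted p = 0.0046). Without overexpression replicate 2 it was also called (edgeR adjusted p = 0.0464), as it was without overexpression replicate 3 (adjusted p = 0.00812).

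The 3 PER genes encode the period proteins that repress the CLOCK and BMAL1 pair together with the cryptochromes. PER1 had 80.7, 86.3 and 80.8 CPM with overexpression, 59.2 and 55.5 CPM with knockdown, and 56.9, 54.4 and 59.4 CPM in control cells. Its overexpression libraries stood clear of the rest, at a log2 fold change of 0.54 ± 0.06, and its knockdown libraries fell within the control range. With knockdown it differed by 0.02 ± 0.06 (log2, edgeR adjusted p = 0.861), with a sign that turned under 3 of the alternatives.

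PER2 had 19.97, 19.3 and 18.6 CPM with overexpression, 21.8 and 19.99 CPM with knockdown, and 14.6, 14.1 and 14.5 CPM in control cells. Here both treatments lay above every control library. The knockdown mean was 20.9 ± 1.29 CPM (SD, n = 2), against 14.4 ± 0.285 CPM in control cells (n = 3), a 1.46-fold rise and a log2 fold change of 0.54 ± 0.08 (edgeR adjusted p = 2.89e-05). Over the alternatives this fold change ran from 0.47 to 0.60 and its edgeR adjusted p from 5.94e-08 to 0.00429. With overexpression the log2 fold change of PER2 was 0.43 ± 0.08, on the same control libraries.

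PER3 had 16.7, 18.6 and 18.3 CPM with overexpression, 16.3 and 15.1 CPM with knockdown, and 16.3, 15.95 and 16.4 CPM in control cells. Its overexpression libraries lay above the control libraries by a narrow margin, with a log2 fold change of 0.13 ± 0.08. The knockdown value was -0.04 ± 0.09 (edgeR adjusted p = 0.741).

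The cryptochromes CRY1 and CRY2 are the partners of the PER proteins in repression. CRY1 had 62.5, 63.5 and 66.6 CPM with overexpression, 64.7 and 59.9 CPM with knockdown, and 57.0, 60.2 and 55.0 CPM in control cells. The overexpression libraries stood just above the control libraries and the knockdown libraries overlapped them. Its log2 fold change was 0.16 ± 0.06 with overexpression and 0.12 ± 0.06 with knockdown (edgeR adjusted p = 0.132 for knockdown).

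CRY2 had 28.6, 29.1 and 25.5 CPM with overexpression, 26.6 and 25.2 CPM with knockdown, and 20.8, 22.1 and 20.6 CPM in control cells. All treated libraries lay above every control library. The log2 fold change was 0.40 ± 0.07 with overexpression. With knockdown CRY2 rose by 0.29 ± 0.08 (log2, edgeR adjusted p = 0.0059), and this call was lost without knockdown replicate 2 (0.25, adjusted p = 0.107).

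ARNTL and CLOCK encode the activating pair, and they moved apart with knockdown. ARNTL had 23.8, 21.1 and 21.8 CPM with overexpression, 22.3 and 19.8 CPM with knockdown, and 18.3, 16.5 and 16.96 CPM in control cells. Every treated library was above every control library, with a log2 fold change of 0.37 ± 0.08 with overexpression and a rise of 0.30 ± 0.09 with knockdown (edgeR adjusted p = 0.0104 for knockdown). The knockdown call was lost without knockdown replicate 2 (0.19, edgeR adjusted p = 0.245), without control replicate 2 (adjusted p = 0.0529) and with all libraries thinned to the depth of the shallowest (adjusted p = 0.0896).

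CLOCK had 39.9, 37.0 and 45.9 CPM with overexpression, 34.7 and 35.0 CPM with knockdown, and 40.3, 43.5 and 40.0 CPM in control cells. The overexpression libraries spread across the control range, at a log2 fold change of -0.03 ± 0.07. The knockdown libraries lay below all others, and CLOCK fell by 0.24 on the log2 scale (SE 0.08, edgeR adjusted p = 0.0182). That call was lost without knockdown replicate 2 (-0.24 ± 0.11, edgeR adjusted p = 0.126) and without knockdown replicate 3 (-0.25 ± 0.10, adjusted p = 0.0746), with a fold change close to the reported one and a larger SE. Without control replicate 2 it was -0.20 ± 0.09 (edgeR adjusted p = 0.0904).

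DBP encodes a PAR bZIP activator that carries the rhythm of the loop to D-box genes. It had 25.8, 30.0 and 23.2 CPM with overexpression, 18.3 and 18.6 CPM with knockdown, and 21.4, 20.2 and 19.7 CPM in control cells. The overexpression libraries stood above and the knockdown libraries below the control libraries. The log2 fold change was 0.37 ± 0.08 with overexpression and -0.15 ± 0.09 with knockdown, which did not pass the test (edgeR adjusted p = 0.204).

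**Figure D2:**
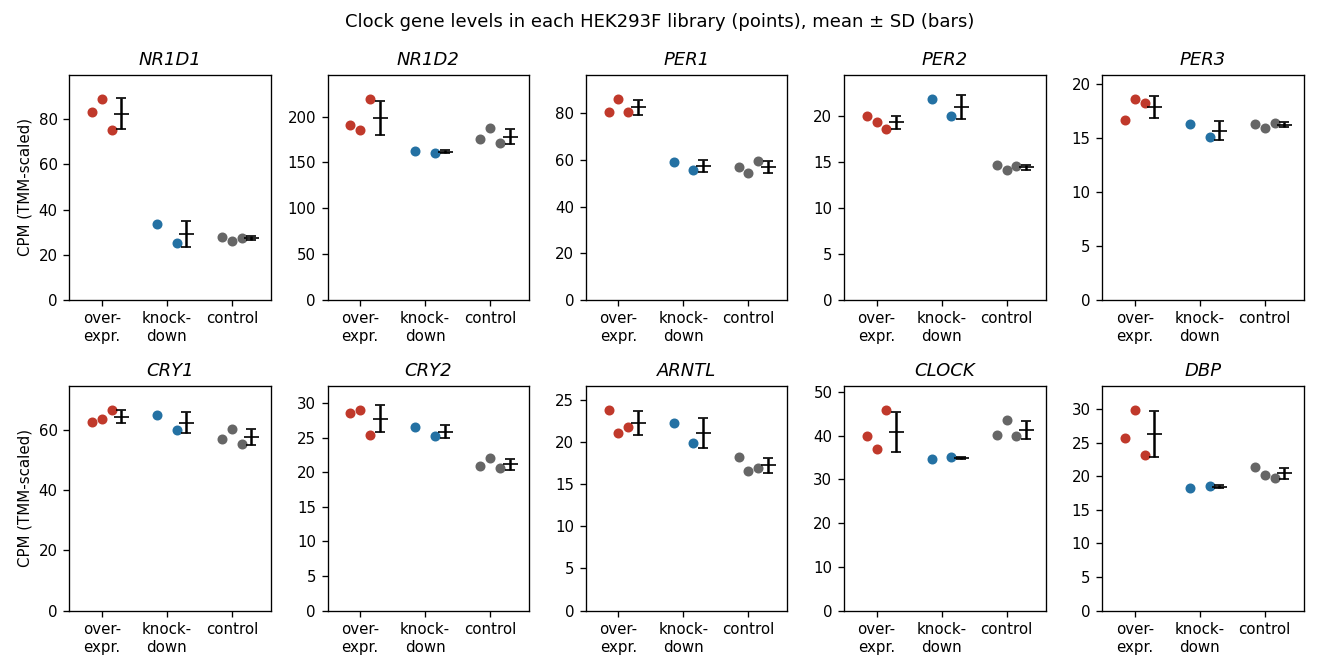
CPM of the 10 clock genes in every library, with overexpression at the left of each panel, knockdown in the middle and control at the right. Points are libraries and bars are mean ± SD (n = 3, 2 and 3); NR1D1 stands out at 75.3 to 89.1 CPM with overexpression, and PER2, CRY2 and ARNTL lie above all control libraries in both treated groups.

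With knockdown 4 of the 10 clock genes were called, 3 higher and 1 lower, while 39.0% of all genes tested were called (19.9% higher and 19.1% lower). The share of called clock genes was near that background. Of all genes called with knockdown 3036 were higher and 2907 lower, and with scaling by library totals 2353 were higher and 3611 lower. Libraries of knockdown and control did not overlap for 6 of the 10 clock genes, against 63.7% of all genes, with PER2, CRY2 and ARNTL above and NR1D2, CLOCK and DBP below. The median log2 fold change of the clock genes was 0.07, against -0.00 over all genes, and the median of its absolute size was 0.15, against 0.18 over all genes. Only 1 clock gene (PER2) was called without knockdown replicate 2, the deepest library, where the calls over all genes also fell, to 3043 against 5943 with every library. Without control replicate 2 there were 2 called clock genes and 4728 called genes in all. Between the knockdown libraries, 8 of the 10 clock genes were higher in replicate 2 than in replicate 3, against 52.0% of all genes.

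Libraries of overexpression and control did not overlap for 8 of the 10 clock genes, all but NR1D2 and CLOCK, and for 56.0% of all genes. The median log2 fold change of the 10 genes was 0.37, against 0.01 over all genes. Since the list was chosen by this comparison, nothing is read from these values. Both comparisons use the same control libraries, so a low control value raises both fold changes of a gene at once.

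**Figure D3:**
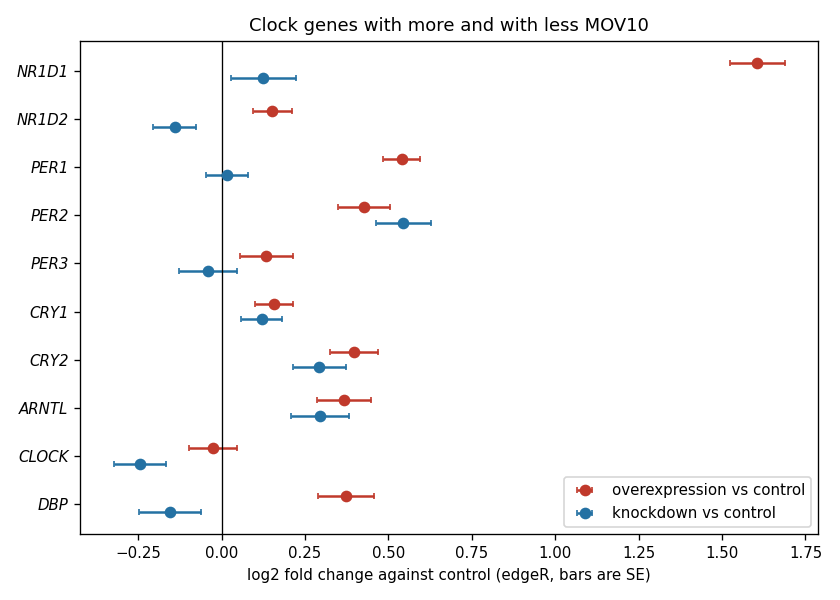
Log2 fold changes of the 10 clock genes against control, with SE bars computed from the edgeR F statistic, for overexpression (red) and knockdown (blue). NR1D1 lies apart at 1.61 with overexpression and 0.13 with knockdown; PER2 is near 0.5 in both, and CLOCK, NR1D2 and DBP lie below 0 with knockdown.

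The libraries were stranded, but the strand setting used in counting is not given in the sources used here, so reads of genes that overlap on opposite strands cannot be told apart. In GENCODE 29, NR1D1 shares 263 exon bases, 9.49% of its exons, with THRA on the other strand, which encodes the thyroid hormone receptor alpha. THRA had 31.5, 30.6 and 28.5 CPM with overexpression, 19.9 and 23.6 CPM with knockdown, and 37.8, 33.7 and 38.6 CPM in control cells. It thus lay below every control library in both treatments, the opposite direction to NR1D1 with overexpression. THRA fell by 0.27 on the log2 scale with overexpression (SE 0.07, edgeR adjusted p = 0.00466) and by 0.77 with knockdown (SE 0.09, adjusted p = 6.93e-07).

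DBP shares 661 exon bases, 10.1% of its exons, with SPHK2, which encodes sphingosine kinase 2. SPHK2 had 27.1, 25.3 and 25.7 CPM with overexpression, 38.7 and 37.1 CPM with knockdown, and 41.2, 41.8 and 38.8 CPM in control cells. It fell by 0.64 on the log2 scale with overexpression (SE 0.06, edgeR adjusted p = 1.24e-07), where DBP was higher, and its knockdown value was -0.10 ± 0.07 (adjusted p = 0.248). UTS2, which shares 868 exon bases with PER3, reached at most 0.134 CPM in any library. TMEM165 shares 76 exon bases with CLOCK and differed by -0.10 ± 0.06 (log2, edgeR adjusted p = 0.145) with overexpression and by 0.07 ± 0.06 (adjusted p = 0.389) with knockdown. The other overlapping annotations, of PER1, PER2, PER3, CRY1 and CLOCK, had no symbol in the count table.

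**Figure D4:**
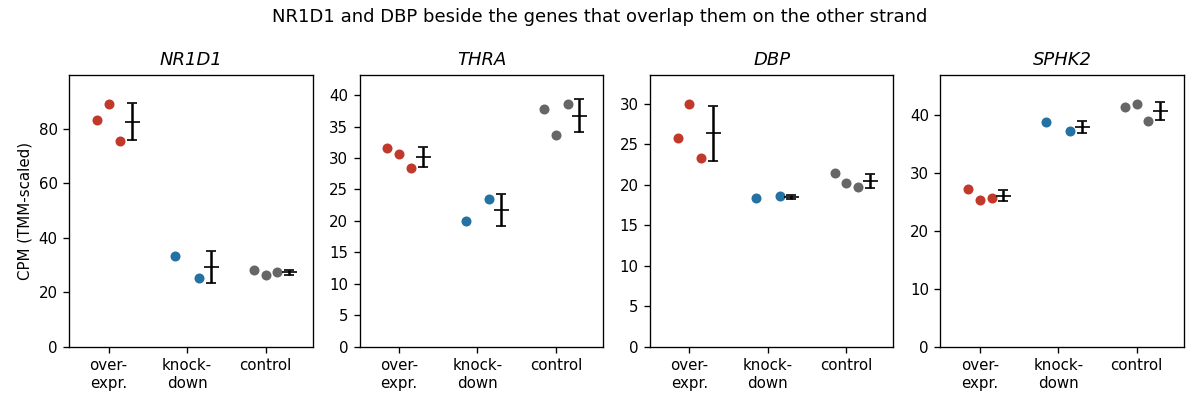
CPM of NR1D1 and DBP beside THRA and SPHK2, the genes that overlap them on the other strand, with overexpression left, knockdown in the middle and control right. Points are libraries and bars mean ± SD; THRA and SPHK2 stand below the control libraries with overexpression, where NR1D1 and DBP stand above them.

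Levels of different genes were compared as CPM per kilobase of merged exons from GENCODE 29. NR1D2 was the most abundant clock transcript in control cells at 30.6 ± 1.41 CPM per kilobase (SD, n = 3, as for the levels that follow), above 88.2% of the 13471 genes with a length. CRY1 followed at 11.3 ± 0.517, NR1D1 at 9.82 ± 0.336 and PER1 at 8.13 ± 0.359 CPM per kilobase. CLOCK at 3.51 ± 0.168, CRY2 at 3.42 ± 0.132 and DBP at 3.13 ± 0.134 CPM per kilobase came next, and CLOCK and CRY2 were the only neighbours in this order whose control libraries overlapped. The lowest levels in control cells were 2.56 ± 0.135 for ARNTL, 2.09 ± 0.0414 for PER2 and 2.00 ± 0.0312 CPM per kilobase for PER3, against a median of 6.70 over all genes. NR1D1 reached 29.8 ± 2.49 CPM per kilobase with overexpression, beside 34.1 ± 3.13 for NR1D2, and the ranges of these 2 genes were 27.2 to 32.1 and 31.9 to 37.7. With the longest transcript as length, PER1 was at 12.1 CPM per kilobase in control cells and so above NR1D1. On that length CRY2 (5.04) and ARNTL (4.47) stood above CLOCK (4.01 CPM per kilobase), ARNTL also above DBP (3.55), and PER3 (2.57) above PER2 (2.26 CPM per kilobase). The order of these 5 pairs depends on the length used.

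The genes whose pattern over the 8 libraries was most like that of NR1D1 were found by the root mean square difference of log2 CPM, centred on the mean of each gene, among 11141 genes. H1F0, a linker histone gene, was nearest at 0.13, followed by ZNF467 at 0.18, MRC2 at 0.21, C1orf95 at 0.23, SLFN5 at 0.27 and C10orf10 at 0.28. With overexpression, the comparison by which NR1D1 was chosen, these 6 genes were higher by 1.17 (C10orf10) to 1.97 (C1orf95) on the log2 scale. With knockdown H1F0 differed from control by 0.24 ± 0.06, ZNF467 by 0.22 ± 0.13 and MRC2 by 0.26 ± 0.11 (log2). C1orf95 differed by 0.49 ± 0.12, SLFN5 by 0.35 ± 0.09 and C10orf10 by -0.37 ± 0.10, beside 0.13 ± 0.10 for NR1D1. Of the other clock genes PER1 was nearest to NR1D1, at rank 298, and DBP next, at rank 632. CLOCK was the farthest, at rank 4208.

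A further 41 genes that work around the loop were grouped into 6 classes, and 39 passed the count filter. ELOVL3, at most 0.222 CPM, was among those that did not. With overexpression 15 of the 39 rose and 9 fell, 24 in all, while 49.2% of all genes were called (25.2% higher and 24.1% lower). With knockdown 14 rose and 9 fell, 23 in all, beside 39.0% of all genes (19.9% higher and 19.1% lower). Without knockdown replicate 2 there were 11 such calls (10 higher and 1 lower), and the calls over all genes fell to 3043 (1577 higher and 1466 lower). The median log2 fold change was 0.06 with overexpression, against 0.01 over all genes, and 0.12 with knockdown, against -0.00 over all genes. The counts of each class below have the same shares of all genes beside them, and no class was tested against them.

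The ROR receptors compete with NR1D1 for the same elements, and HLF and TEF share the D-box with DBP, while NFIL3 represses there. With overexpression 4 of the 5 tested genes of this class rose (RORA, RORB, TEF and HLF), beside 25.2% of all genes, and with knockdown RORA and HLF fell, beside 19.1%. The overexpression libraries of RORB overlapped its control libraries (edgeR adjusted p = 0.0314). RORA, the ROR alpha gene, had 54.7, 51.5 and 64.0 CPM with overexpression, 29.7 and 36.0 CPM with knockdown, and 37.6, 41.4 and 38.6 CPM in control cells. Its overexpression libraries lay above and its knockdown libraries below the control libraries. RORA rose by 0.52 ± 0.08 with overexpression (edgeR adjusted p = 1.73e-05) and fell by 0.27 on the log2 scale with knockdown (SE 0.09, adjusted p = 0.0235). Without knockdown replicate 2 the knockdown value was -0.13 (edgeR adjusted p = 0.456), and the call was also lost without control replicate 2 (adjusted p = 0.0989).

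HLF had 12.1, 12.2 and 13.2 CPM with overexpression, 5.90 and 6.11 CPM with knockdown, and 8.25, 8.59 and 9.15 CPM in control cells. The 3 groups did not overlap. HLF rose by 0.53 ± 0.09 (log2, edgeR adjusted p = 8.47e-05) with overexpression and fell by 0.53 on the log2 scale with knockdown (SE 0.11, adjusted p = 8.78e-04).

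Partners and feedback repressors of the activating pair changed in both directions. With overexpression 3 of 6 were higher and 2 lower (25.2% and 24.1% of all genes), and with knockdown 1 was higher and 2 lower (19.9% and 19.1% of all genes). C1orf51, the older symbol of CIART, encodes a repressor of the CLOCK and BMAL1 pair. It had 5.50, 5.51 and 6.14 CPM with overexpression, 3.11 and 3.30 CPM with knockdown, and 2.70, 2.48 and 3.34 CPM in control cells. The overexpression libraries stood clear of the others, and C1orf51 rose by 1.01 ± 0.14 (log2, edgeR adjusted p = 7.15e-06), while its knockdown value was 0.18 ± 0.17 (adjusted p = 0.408). BHLHE40, which encodes the E-box repressor DEC1, had 192 and 231 CPM with knockdown, against 158, 159 and 172 CPM in control cells, a rise of 0.38 ± 0.07 (log2, edgeR adjusted p = 1.95e-04). With overexpression BHLHE40 had 212, 225 and 201 CPM and also rose, by 0.39 ± 0.06 (log2, edgeR adjusted p = 3.06e-05). TIMELESS, known in human cells for its role at replication forks, fell by 0.31 on the log2 scale with overexpression (SE 0.04, edgeR adjusted p = 1.1e-05) and by 0.18 with knockdown (SE 0.05, adjusted p = 0.00803). The knockdown call of TIMELESS was lost without knockdown replicate 2 (-0.18 ± 0.07, edgeR adjusted p = 0.0633) and without knockdown replicate 3 (-0.17 ± 0.07, adjusted p = 0.0622), with fold changes close to the reported one.

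The kinases set the stability and activity of PER and CRY proteins. With overexpression 1 of 6 rose and 2 fell (25.2% and 24.1% of all genes), and with knockdown 2 rose and 2 fell (19.9% and 19.1% of all genes). CSNK1D, a casein kinase that phosphorylates PER, had 371 and 343 CPM with knockdown, against 299, 291 and 298 CPM in control cells, a rise of 0.27 ± 0.05 (log2, edgeR adjusted p = 4.44e-04). With overexpression CSNK1D fell by 0.15 on the log2 scale (SE 0.05, edgeR adjusted p = 0.0119). PRKAA1 and PRKAA2 encode the catalytic subunits of AMPK, which phosphorylates CRY1 in mouse. PRKAA1 rose by 0.25 ± 0.05 with knockdown (edgeR adjusted p = 9.14e-04), PRKAA2 rose by 0.26 ± 0.06 with overexpression (adjusted p = 0.00219), and CSNK2A1, a catalytic subunit of casein kinase 2, fell by 0.21 with overexpression (SE 0.05, adjusted p = 9.6e-04). PRKAA2 fell by 0.21 on the log2 scale with knockdown (SE 0.07, edgeR adjusted p = 0.0286).

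Ubiquitin ligases and the deubiquitinase USP2 govern the turnover of clock proteins, and 2 of 6 rose and 2 fell in each comparison. The shares of all genes were 25.2% and 24.1% with overexpression, and 19.9% and 19.1% with knockdown. HUWE1, a ligase linked to the turnover of REV-ERB alpha, had 701, 585 and 570 CPM with overexpression, 712 and 716 CPM with knockdown, and 469, 501 and 510 CPM in control cells. It lay above the control libraries in all treated libraries and rose by 0.33 ± 0.06 (log2, edgeR adjusted p = 1.3e-04) with overexpression and by 0.53 ± 0.07 (adjusted p = 2.66e-06) with knockdown. FBXW11, whose product targets phosphorylated PER, fell by 0.18 on the log2 scale with overexpression (SE 0.05, edgeR adjusted p = 0.00327) and by 0.14 with knockdown (SE 0.05, adjusted p = 0.0393).

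Among the corepressors and coregulators, 1 of 7 rose and 1 fell with overexpression (25.2% and 24.1% of all genes), and 5 rose and 1 fell with knockdown (19.9% and 19.1% of all genes). HDAC3, the deacetylase through which REV-ERB alpha represses together with NCOR1, was not called in either comparison. MLL, now named KMT2A, encodes a histone methyltransferase that works with CLOCK and rose by 0.61 ± 0.06 with overexpression (edgeR adjusted p = 2.21e-07) and by 0.29 ± 0.07 with knockdown (adjusted p = 0.00244). SIRT1, a deacetylase of clock proteins, had 78.5, 71.0 and 82.9 CPM with overexpression, 122 and 110 CPM with knockdown, and 87.9, 89.0 and 77.3 CPM in control cells. It rose by 0.46 ± 0.07 with knockdown (log2, edgeR adjusted p = 3.66e-05), and its overexpression libraries overlapped the control libraries. NONO, a partner of PER proteins, fell by 0.28 on the log2 scale with overexpression (SE 0.05, edgeR adjusted p = 7.04e-05) and by 0.17 with knockdown (SE 0.05, adjusted p = 0.0142).

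Of 9 tested inputs and outputs of the clock, 4 rose and 2 fell with overexpression (25.2% and 24.1% of all genes), and 4 rose and 0 fell with knockdown (19.9% and 19.1% of all genes). KLF10, a Krüppel-like factor gene whose liver expression is rhythmic in mouse, had 109, 112 and 122 CPM with overexpression, 96.6 and 92.7 CPM with knockdown, and 46.4, 50.8 and 47.0 CPM in control cells. Every treated library stood above every control library, with rises of 1.25 ± 0.06 (log2, edgeR adjusted p = 2.37e-12) with overexpression and 0.98 ± 0.06 (adjusted p = 4.93e-10) with knockdown. PPARGC1A, the gene of the coactivator PGC-1 alpha, rose by 0.51 ± 0.07 with overexpression (edgeR adjusted p = 4.4e-06). CRTC1, a coactivator of CREB, had 33.2 and 34.6 CPM with knockdown, against 24.9, 26.9 and 26.4 CPM in control cells, a rise of 0.38 ± 0.08 (log2, edgeR adjusted p = 9.56e-04). With overexpression CRTC1 fell by 0.26 on the log2 scale (SE 0.08, edgeR adjusted p = 0.00935).

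**Figure D5:**
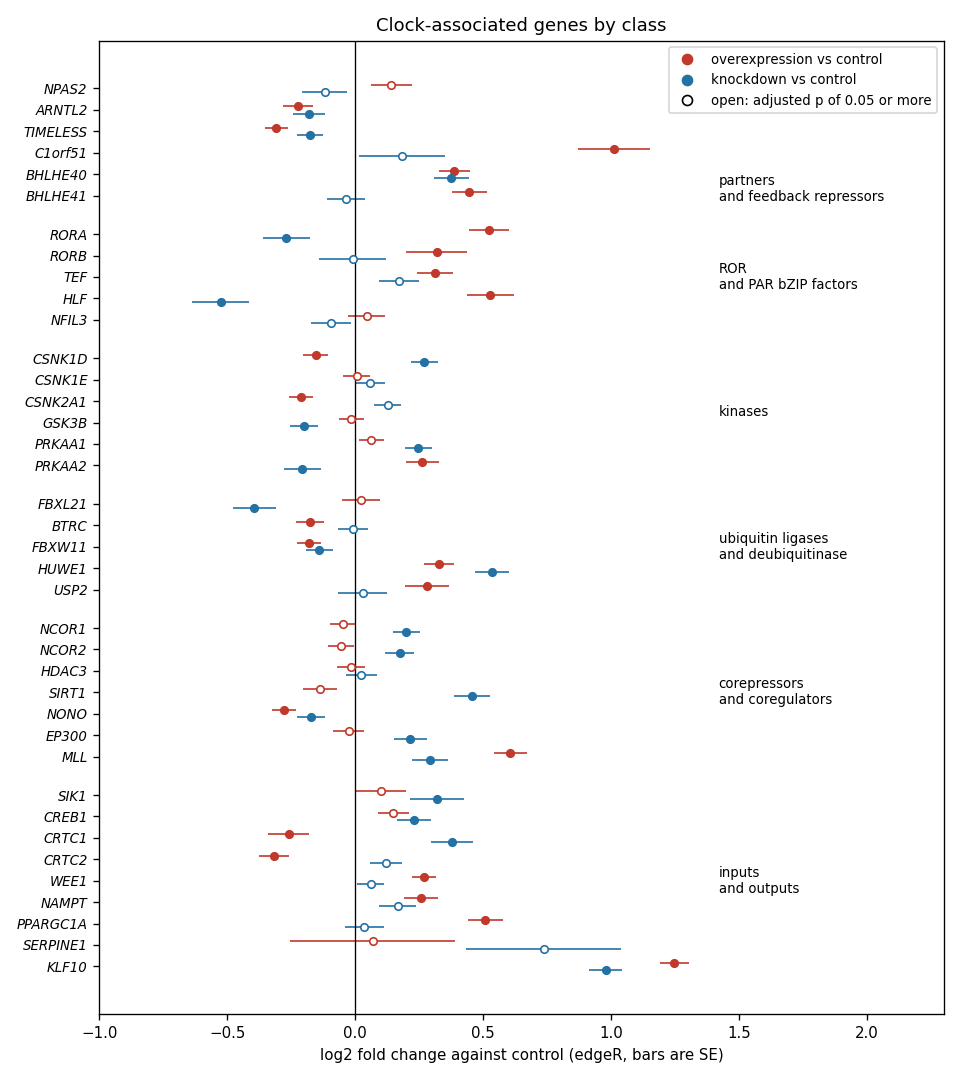
Log2 fold changes against control of tested clock-associated genes by class, for overexpression (red) and knockdown (blue), with SE bars computed from the edgeR F statistic. Filled points have an adjusted p under 0.05; KLF10 lies near 1 in both comparisons, C1orf51 at 1.01 with overexpression, and RORA and HLF lie on opposite sides of 0.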

How the data were processed

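Stranded total RNA libraries (TruSeq, per the labels' protocols) of HEK293F cells were sequenced. The authors deposited raw read counts for each gene symbol. The submitters' processing notes name the aligner TopHat2 2.0.8, the counter HTSeq 0.5.3p9 and the build hg19, beside Trimmomatic 0.22, SAMtools 0.1.18, CASAVA 1.8.2 and edgeR. The sources used here do not give the strand setting, the annotation or how multiply aligned reads were handled. Libraries were grouped by title.

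After filterByExpr (minimum count 10, minimum total 15), 15254 genes were fitted with edgeR 4.0.16 in R 4.3.3 (TMM factors 0.961 to 1.03, glmQLFit, two-sided F test, all 8 libraries, 1 mean per group). The SE of an edgeR fold change was computed as its absolute log2 value divided by the square root of the F statistic. The common biological coefficient of variation was 4.49%. P-values were adjusted by Benjamini-Hochberg over all genes. Replicate libraries differed beyond sampling noise (chi-square per gene 1.87 to 8.01). The edgeR step was tested on simulated counts. Exon lengths and overlaps came from GENCODE 29, matched by symbol, without coordinates since its build differs. Alternatives were other scalings (DESeq2 size factors, library totals, MOV10 left out), filters (none, minimum count 50), DESeq2 1.42.0, limma-voom (limma 3.58.1), a fit of the compared groups, thinning, a replicate block and leaving out each library.

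The members, the lists of associated and marker genes and the tests were chosen with earlier results of these data known. Named in the text are all 10 clock genes, the called genes with the 2 smallest adjusted p per class and comparison, the genes that overlap a clock gene, the 6 genes most like NR1D1 (mean log2 CPM of at least 3) and MOV10. A gene that meets these criteria is not reported here. RORB, TEF, HDAC3 and ELOVL3 were named after their values were seen.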

Additional observations from a re-analysis of the deposited data

How the results depend on the processing

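Leaving out 1 library at a time gave 1 to 5 clock genes called with knockdown and 1 to 4 higher, with the 1 reached without knockdown replicate 2. Over the same fits 11 to 28 clock-associated genes were called with knockdown and 22 to 25 with overexpression, and 3043 to 7233 of all genes with knockdown and 6106 to 7848 with overexpression. Leaving out each library, the knockdown log2 fold change of NR1D1 ran from -0.12 to 0.30, that of PER1 from -0.038 to 0.062 and that of PER3 from -0.11 to 0.012, so each changed sign. That of PER1 was -0.016 without control replicate 2 and -0.030 with library totals, and that of PER3 was 0.014 when all libraries were thinned. The cause was not tested. All other fold changes of the clock genes kept their direction with knockdown. CLOCK with overexpression, at -0.03, ran from -0.10 to 0.05. Deviations from the group means correlated at -0.31 to 0.21 between libraries of 1 number and at -0.23 to 0.31 between libraries of unlike numbers. Centring within such small groups forces these correlations to balance each other. They therefore cannot decide whether the replicate numbers in the titles pair the libraries. With the replicate number as a block, 5169 genes were called with knockdown and 7117 with overexpression, 4 of them clock genes with knockdown. The lowest of 8 depths, 12.7 M reads, and the pair of knockdown libraries limit how small a change can be called.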
